A study of Mus musculus with 6 samples.

Results

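A set of 35 genes for lysosomal hydrolases and lysosomal membrane proteins was followed after silencing of Ep300 in the mouse macrophage line RAW264.7. Members were taken by gene symbol from the deposited table of 49492 genes. All 35 were found, and all 35 passed the filter on low counts, among 15741 genes tested. They comprise 10 proteases, 12 enzymes that degrade glycans, 5 proteins of lipid breakdown, 7 membrane and cholesterol transport proteins, and the granulin precursor Grn. Cells labelled Ep300 silenced received 50 nM of an siRNA against Ep300, and cells labelled WT received 50 nM of a control siRNA (nc), each for 48 h with the riboFECT CP reagent. Each group held 3 libraries of stranded mRNA, and both groups share the cell line and the transfection. The labels name no clone of the line. Whether replicates were grown as separate cultures is not stated either, so each p-value reflects only the spread between these libraries, which may be technical.

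Lysosomes are acidic compartments in which proteins, glycans and lipids taken up or turned over by the cell are broken down, and macrophages use them to digest what they engulf. Most of the soluble enzymes are tagged with mannose 6-phosphate in the Golgi and carried to the lysosome by receptors, while a proton pump in the membrane keeps the lumen acidic. Many genes of this compartment carry E-boxes near their start and are activated by the transcription factors TFEB, TFE3 and MITF. The product of Ep300, p300, acetylates histones and other proteins and acts as a coactivator of transcription.

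To show what the promoters of these genes hold, the RefSeq promoter table (GRCm38.p6, 250 bases before to 50 after each start) was searched for the E-box core CACGTG, which reads the same on both strands. It held 30 of the 35 members, of which 10 (33.3%) had the core at any of their listed starts. Ctsa and Lgmn have several listed starts, and only the start further inside the gene had the core. Among the 14 members that rose after Ep300 siRNA, all of which are in the table, 6 (42.9%) had it, against 4 of the 16 other members found there (25%). The core occurred in 11.8% of the 9896 tested genes in the table and in 8.09% of all 27025 genes in it. The longer GTCACGTG, which contains the core and was searched on both strands, occurred in 8 of the 30 members (26.7%) and in 4.71% of the tested genes. It was in 4 of the 14 members that rose (28.6%) and in 4 of the 16 others (25%). The palindrome TCACGTGA, which also contains the core, was in 1 of the 14 members that rose (7.14%), in 3 of the 16 others (18.8%) and in 2.11% of the tested genes. A match is a description of letters in this window and says nothing of binding. The stretches of the 6 members that rose, and that of Lamp1, which had the most copies, are shown on the gene's strand with the core in capitals. They lie at chr2:164833747-164833772 (Ctsa, plus strand), chr9:114401016-114401049 (Glb1, plus), chr11:101070007-101070040 (Naglu, plus), chr11:119267809-119267842 (Gaa, plus), chr12:102439122-102439155 (Lgmn, minus), chr13:64370737-64370770 (Ctsl, minus) and chr8:13159086-13159160 (Lamp1, plus).
Ctsa: aatgagcaaactgtCACGTGatgcag
Glb1: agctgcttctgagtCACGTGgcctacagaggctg
Naglu: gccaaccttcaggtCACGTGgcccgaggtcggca
Gaa: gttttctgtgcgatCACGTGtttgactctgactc
Lgmn: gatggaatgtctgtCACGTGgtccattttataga
Ctsl: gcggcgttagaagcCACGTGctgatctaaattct
Lamp1: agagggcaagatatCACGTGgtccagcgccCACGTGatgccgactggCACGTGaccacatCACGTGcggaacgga
In Ctsa, Glb1, Naglu and Lgmn the core is preceded by gt, so these stretches hold GTCACGTG. That of Gaa has at and that of Ctsl has gc in its place. The Ctsa and Lgmn stretches lie before the start further inside each gene. Another core of Ctsa, just after that start, is not shown. In GENCODE M21, parts of the Ctsa, Naglu and Ctsl stretches lie within annotated exons of these genes.

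Total counts ranged from 29993567 to 45377510 per library. Ep300 fell to 51.1, 59.0 and 54.9 CPM (the library's counts on the gene relative to its TMM-scaled total) after Ep300 siRNA, against 107, 115 and 118 CPM after control siRNA (log2 fold change −1.04 ± 0.07, SE; edgeR adjusted p = 3.62e-05). Ep300 siRNA replicate 1 lay farthest out among its group on the first principal component and had the most Gm42418, a transcript at a ribosomal RNA repeat, with 5823 CPM where the remaining 5 libraries had 1327 to 2174. Results that lost their call without it are named below. The macrophage markers Csf1r, Adgre1, Cd68, Itgam, Lyz2, Cd14 and Fcgr1 were present in every library. Mertk was near absent, with 4 to 14 counts per library, and was not tested. The summed level of all 8 macrophage markers was 10217 to 11149 CPM after Ep300 siRNA and 9013 to 10634 CPM after control siRNA. Most of it was Lyz2, with means of 8263 CPM after Ep300 siRNA and 7471 CPM after control siRNA. None of the 7 tested passed with edgeR. Csf1r and Adgre1 lay lower in every Ep300 siRNA library (edgeR adjusted p = 0.0666 and 0.0855). Cd14 (edgeR adjusted p = 0.0535) and Cd68 (0.3) lay higher. Fcgr1 had the largest change, with overlapping groups (log2 fold change −0.36 ± 0.15, SE, edgeR adjusted p = 0.191). The part of these markers in the results was not tested. Summed markers of T cells, B cells, neutrophils, fibroblasts, epithelium, endothelium and erythroid cells stayed at or below 1.1 CPM per list and library, and Cd8a was at 0 in every library. In bulk RNA, a change in the number of cells of one kind and a change in RNA per cell cannot be told apart.

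Of the 35 members, 14 rose, 1 fell and 20 did not pass (edgeR, adjusted p under 0.05 over all genes tested), where 6.78% of all 15741 genes passed, 2.76% as rises and 4.02% as falls. At an unadjusted edgeR p under 0.05, 21 members were higher and 1 lower, where 10.3% of all genes were higher and 11.9% lower. By DESeq2, 17 members rose and 1 fell, where 4.4% of all genes rose and 4.72% fell. A positive log2 fold change was seen for 32 members, against 49.2% of all genes tested, and the median was 0.24, against −0.004 over all genes. All 3 Ep300 siRNA libraries lay above all 3 control libraries for 19 members and below them for 1, where the same held for 13% and 14.4% of all genes. The changes were small: the rises ran from 1.18-fold in Ppt1 and Grn to 1.41-fold in Naglu. With 1 library left out, 5 members rose without Ep300 siRNA replicate 1, 7 without replicate 2 and 5 without replicate 3, and 14 without control siRNA replicate 1, 5 without replicate 2 and 5 without replicate 3. The shares of all genes that rose in the same fits were 1.87% without Ep300 siRNA replicate 1, 202 of 16138 genes without replicate 2 and 1.69% without replicate 3, and 2.77%, 1.3% and 1.46% without control siRNA replicates 1, 2 and 3. Over those fits, 30 to 33 members had a positive log2 fold change and the median was 0.20 to 0.28. On library sizes alone, without scaling factors, 9 members rose, where 2.01% of all genes rose. Hexa, Glb1, Ppt1, Lamp2 and Grn lost their call there (edgeR adjusted p from 0.0589 to 0.0767), and Ctsa lay at 0.05. The rises of Naglu, Gaa, Manba and Ctsc passed in each setting tried and with each library left out.

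**Figure D1:**
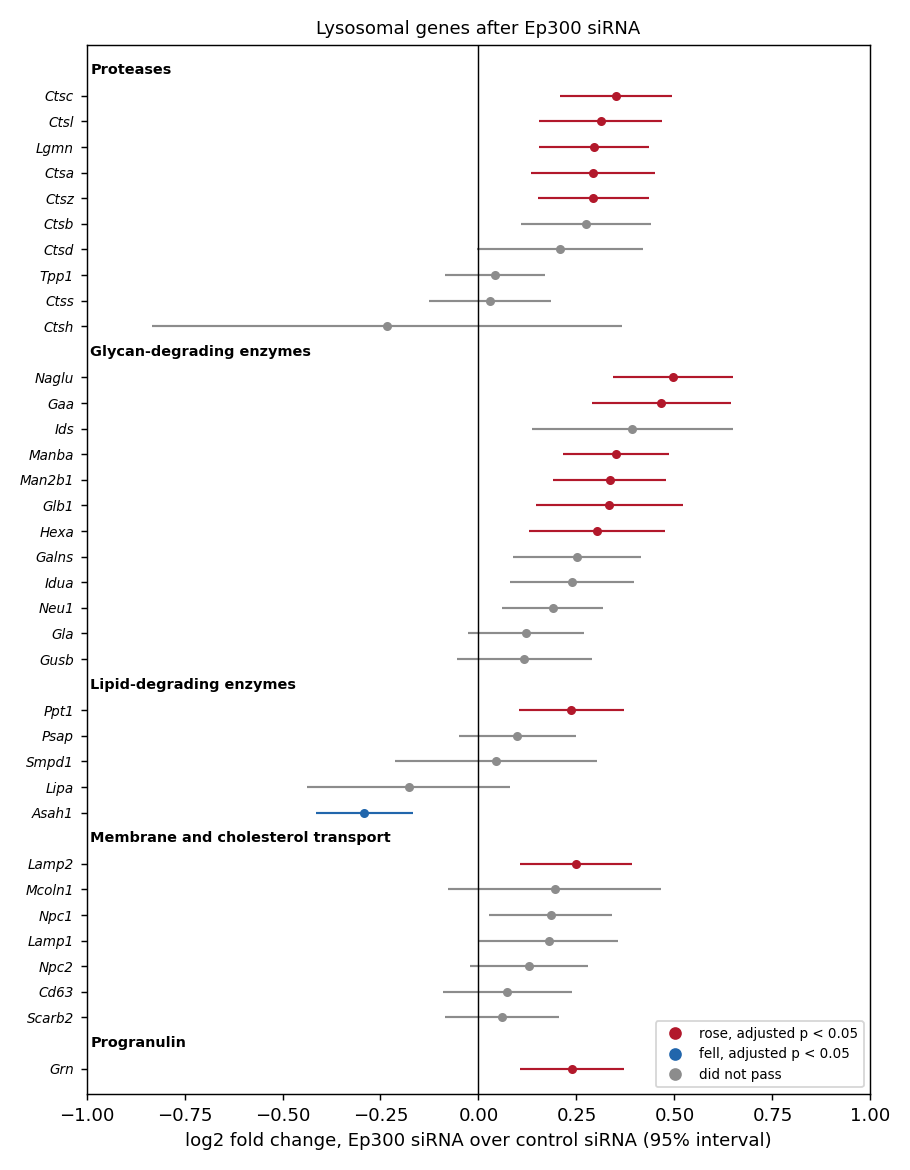
Log2 fold change of each of the 35 lysosomal genes, Ep300 siRNA over control siRNA, with its 95% interval from edgeR, grouped by role. Red points rose, the blue point fell and grey points did not pass; 32 of the 35 points lie to the right of 0.

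Together the 35 genes took 1.77%, 1.68% and 1.71% of all counts after Ep300 siRNA, and 1.62%, 1.56% and 1.45% after control siRNA. The 3 Ep300 siRNA libraries lay above the 3 control libraries in this share. The cathepsins Ctsb, Ctsd, Ctsl and Ctss alone made up 1.03%, 0.986% and 0.992% after Ep300 siRNA, and 0.934%, 0.907% and 0.836% after control siRNA. For the enzymes of lipid breakdown the shares overlapped, at 0.144%, 0.131% and 0.135% after Ep300 siRNA and 0.151%, 0.139% and 0.127% after control siRNA.

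**Figure D2:**
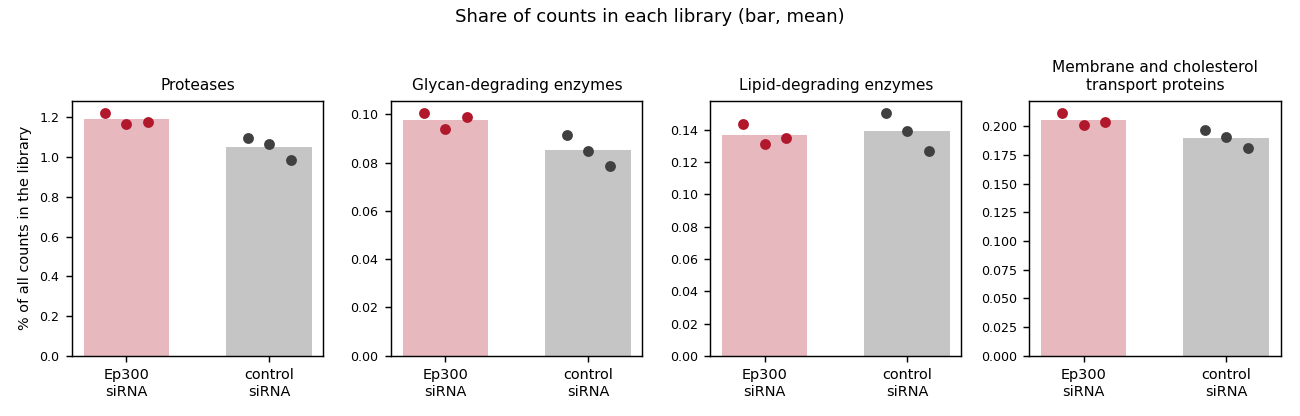
Share of all counts in each library that fell on the proteases, glycan-degrading enzymes, lipid-degrading enzymes and membrane proteins (points, libraries; bars, group means; each panel has its own axis in percent, from 0). The Ep300 siRNA points lie above the control points for every group but the lipid-degrading enzymes.

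Levels differed widely between members. Lengths were those of the longest mRNA marked principal in GENCODE M21, or of all exons where none is marked. Per kilobase of this length, the highest mean level was that of Ctss (cathepsin S, a cysteine protease of antigen processing). It had 1748 ± 52.5 CPM per kb after Ep300 siRNA and 1713 ± 108.9 after control siRNA (SD, n = 3 each). Ctsd (cathepsin D, an aspartic protease) followed at 1240 ± 85.7 CPM per kb after Ep300 siRNA and 1073 ± 141.6 after control siRNA. Exons of Ctsd share 808 bases with Gm49369 on the same strand. Ctsb was at 644 ± 28.8 CPM per kb after Ep300 siRNA and 532 ± 38.0 after control siRNA, and Ctsz at 630 ± 15 after Ep300 siRNA and 515 ± 24.3 after control siRNA. The levels of Ctsb and Ctsz lay within their spread of each other in either group. These places depend on the length used. Ctsl was given 6.168 kb and so stood at 341 CPM per kb after Ep300 siRNA and 275 after control siRNA. Its means before division were 2106 CPM after Ep300 siRNA and 1696 CPM after control siRNA. The lowest levels were those of Ctsh (cathepsin H), at 1.40 ± 0.650 CPM per kb after Ep300 siRNA and 1.66 ± 0.115 after control siRNA, and of Ids (iduronate 2-sulfatase), at 1.53 ± 0.149 CPM per kb after Ep300 siRNA and 1.17 ± 0.0777 after control siRNA. The coefficient of variation between libraries of one group had a median of 5.33% over the members and both groups. It was highest for Ctsh, at 46.3% after Ep300 siRNA, for Mcoln1, at 20.6% after control siRNA, and for Lipa, at 17.5% after control siRNA.

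Of the 10 proteases, 5 rose and 5 did not pass, with a median log2 fold change of 0.28, where 2.76% of all genes rose. Ctsc (cathepsin C, which activates the serine proteases of granules) had 30.2, 28.4 and 29.3 CPM after Ep300 siRNA, against 23.2, 22.9 and 22.8 CPM after control siRNA. It rose 1.27-fold (log2 fold change 0.35 ± 0.07, SE; edgeR adjusted p = 0.00863), with the 3 controls close together. Ctsl (cathepsin L, a cysteine endopeptidase) had 2222, 2010 and 2085 CPM after Ep300 siRNA, against 1772, 1722 and 1596 CPM after control siRNA. The groups did not overlap, and Ctsl rose 1.24-fold (0.31 ± 0.07, SE; edgeR adjusted p = 0.0244). Lgmn (legumain, which cuts after asparagine and processes cathepsins) had 333, 303 and 310 CPM after Ep300 siRNA, against 264, 264 and 244 CPM after control siRNA, a rise of 1.23-fold (edgeR adjusted p = 0.0192). Ctsz (cathepsin Z, a carboxypeptidase) had 930, 886 and 909 CPM after Ep300 siRNA, against 753, 770 and 703 CPM after control siRNA, a rise of 1.22-fold (edgeR adjusted p = 0.0205). In both genes each Ep300 siRNA library lay above each control library. Ctsa (cathepsin A, or protective protein, which stabilises beta-galactosidase and neuraminidase) had 533, 485 and 503 CPM after Ep300 siRNA, against 443, 419 and 380 CPM after control siRNA, a rise of 1.23-fold (edgeR adjusted p = 0.033).

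Except for Ctsc, these protease calls were close to the threshold. Ctsl and Lgmn did not pass without replicate 1 or 3 of Ep300 siRNA, nor without replicate 2 or 3 of control siRNA (edgeR adjusted p up to 0.0856 for Ctsl and 0.0754 for Lgmn). Ctsz did not pass without any one of the 3 Ep300 siRNA libraries or control siRNA replicate 3 (edgeR adjusted p up to 0.0799). With a library left out, Ctsa passed only without control siRNA replicate 1 (edgeR adjusted p up to 0.111). Exons of Ctsa overlap those of Pltp by 495 bases and of Neurl2 by 324 bases on the other strand, both far less abundant: Pltp averaged 16.5 CPM after Ep300 siRNA and 14.4 CPM after control siRNA. Ctsl shares 1742 bases with Gm47123 on the other strand and 395 with Gm49230 on its own. In all, 12 of the 35 members share exon sequence with another gene of GENCODE M21, and Naglu, Gaa, Manba, Man2b1, Ctsc, Lgmn, Lamp2 and Asah1 share none. The sources do not state whether counting used strand, so values of overlapping genes are uncertain.

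Among the proteases that did not pass, Ctsb (cathepsin B, a cysteine protease) was nearest the threshold, with 3207, 3013 and 2944 CPM after Ep300 siRNA, against 2680, 2568 and 2327 CPM after control siRNA. Its groups did not overlap, and it shares 774 bases with Fdft1 on the other strand (log2 fold change 0.27 ± 0.08, SE; edgeR adjusted p = 0.0526), and it passed in 8 of the 10 other settings with all libraries, not on library sizes alone or with halved counts. With a library left out it passed only without control siRNA replicate 1 (edgeR adjusted p = 0.0275, range over all alternatives 0.00124 to 0.155). Ctsd had 2847, 2521 and 2542 CPM after Ep300 siRNA and 2540, 2358 and 1952 CPM after control siRNA, with overlap between the groups (0.21 ± 0.10, SE; edgeR adjusted p = 0.237). For Ctss, the most abundant member per length, the change on the log2 scale was 0.03 ± 0.07 (SE, 95% interval −0.13 to 0.19), and for Tpp1 (tripeptidyl peptidase 1) it was 0.04 ± 0.06 (SE, −0.09 to 0.17). In both, the libraries of the groups overlapped. Ctsh, with 46 to 126 counts per library, had 2.08, 1.33 and 3.40 CPM after Ep300 siRNA and 2.72, 2.48 and 2.85 CPM after control siRNA, and its interval of −0.83 to 0.37 leaves its direction unknown.

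The glycan-degrading enzymes had positive log2 fold changes throughout: of 12, 6 rose and 6 did not pass, with a median of 0.32. Over all genes tested, 2.76% rose. Naglu (alpha-N-acetylglucosaminidase, which breaks down heparan sulfate; GRCm38 chromosome 11, 101070012 to 101077672, plus strand) had 28.9, 30.2 and 28.8 CPM after Ep300 siRNA, against 21.6, 21.1 and 19.6 CPM after control siRNA. Its groups were far apart relative to their spread, and it rose 1.41-fold (log2 fold change 0.50 ± 0.07, SE; edgeR adjusted p = 0.00217). Gaa (acid alpha-glucosidase, which degrades glycogen; chromosome 11, 119267887 to 119285454, plus strand) had 61.6, 54.8 and 52.4 CPM after Ep300 siRNA, against 44.7, 39.3 and 38.0 CPM after control siRNA. It rose 1.38-fold (0.47 ± 0.08, SE; edgeR adjusted p = 0.0061), with replicate 1 the highest library in each group. Manba (beta-mannosidase; chromosome 3, 135485611 to 135571404, plus strand) had 42.5, 39.4 and 40.0 CPM after Ep300 siRNA, against 32.4, 31.6 and 31.6 CPM after control siRNA, a rise of 1.28-fold (edgeR adjusted p = 0.00649). Man2b1 (lysosomal alpha-mannosidase) had 59.8, 55.9 and 56.3 CPM after Ep300 siRNA, against 47.8, 42.3 and 46.2 CPM after control siRNA. It rose 1.26-fold (edgeR adjusted p = 0.0116), and without control siRNA replicate 2 the adjusted p was 0.0528, the highest of the settings tried (lowest 0.000664).

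Hexa and Glb1 rose as well, nearer to the threshold. Hexa (the alpha subunit of beta-hexosaminidase, which degrades GM2 ganglioside) had 264, 231 and 253 CPM after Ep300 siRNA, against 216, 210 and 181 CPM after control siRNA, a rise of 1.23-fold (edgeR adjusted p = 0.0413). Glb1 (beta-galactosidase) had 21.3, 19.1 and 21.5 CPM after Ep300 siRNA, against 16.7, 17.4 and 15 CPM after control siRNA, a rise of 1.26-fold (edgeR adjusted p = 0.039). Neither pair of groups overlapped. Hexa passed only without control siRNA replicate 1 among the fits with a library left out, and Glb1 in none of them (edgeR adjusted p up to 0.127 for both). Exons of Glb1 share 165 bases with Tmppe on the same strand, which averaged 8.78 CPM after Ep300 siRNA and 7.33 CPM after control siRNA. Those of Hexa share 255 bases with Tmem202 on the other strand, at 25.1 CPM after Ep300 siRNA and 20.1 CPM after control siRNA.

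Of the 6 glycan-degrading enzymes that did not pass, 4 had groups that did not overlap, with Ep300 siRNA higher. The same held for 13% of all genes tested, and 27.5% had groups that did not overlap in either direction. Ids, which removes sulfate from heparan and dermatan sulfate, had 6.96, 8.42 and 7.51 CPM after Ep300 siRNA and 5.49, 6.25 and 5.75 CPM after control siRNA (log2 fold change 0.39 ± 0.12, SE; edgeR adjusted p = 0.071). Galns (galactosamine-6-sulfatase) was at 0.25 ± 0.07 (SE; edgeR adjusted p = 0.0698), Idua (alpha-L-iduronidase) at 0.24 ± 0.07 (0.0745) and Neu1 (neuraminidase 1) at 0.19 ± 0.06 (0.0808). Gla (alpha-galactosidase A) and Gusb (beta-glucuronidase) had overlapping groups, at 0.12 ± 0.07 (SE, 95% interval −0.03 to 0.27) and 0.12 ± 0.08 (−0.05 to 0.29).

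**Figure D3:**
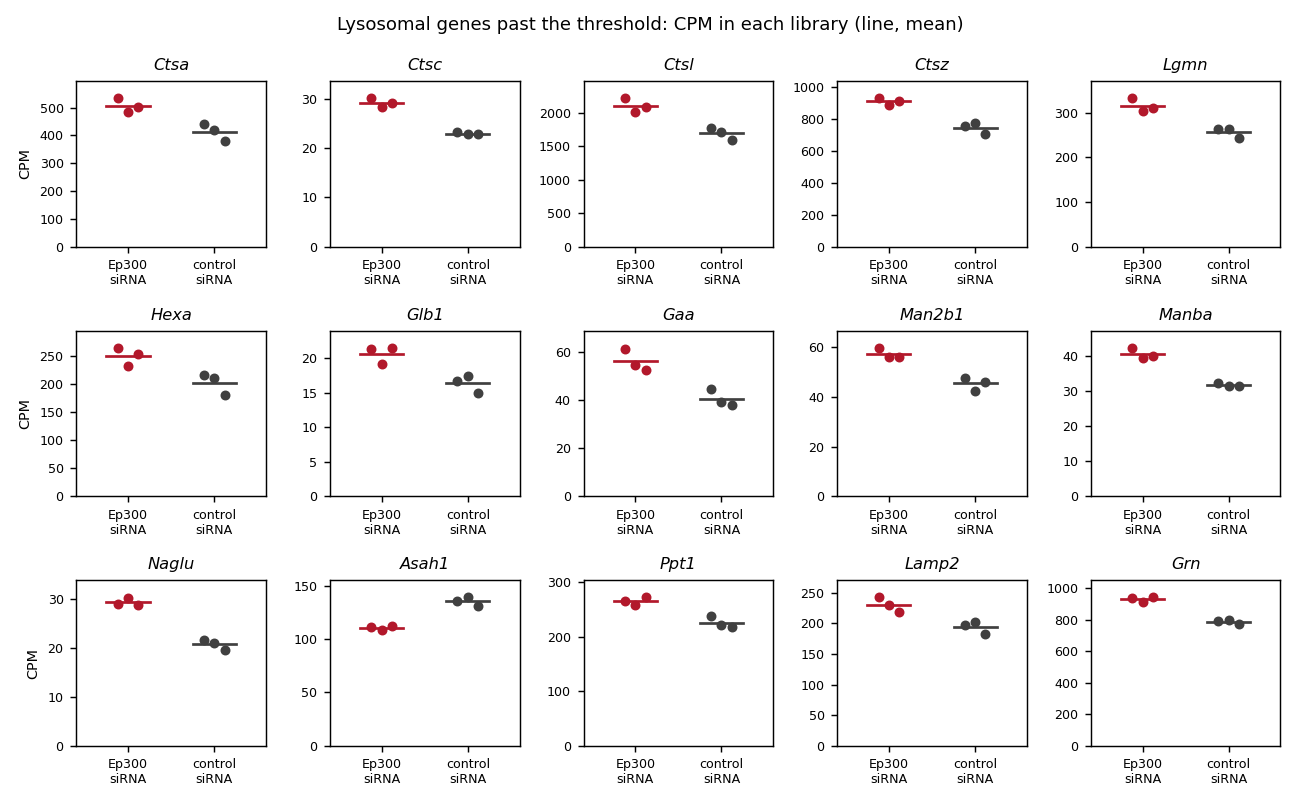
CPM in each library for the 15 lysosomal genes past the threshold, Ep300 siRNA on the left and control siRNA on the right of each panel (points, libraries; lines, group means; axes start at 0). In 14 panels the Ep300 siRNA points lie above the control points, and for Asah1 they lie below.

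The proteins of lipid breakdown were divided in direction: of 5, 1 rose, 1 fell and 3 did not pass, with a median log2 fold change of 0.04. Over all genes tested, 2.76% rose and 4.02% fell. Asah1 (acid ceramidase, which splits ceramide into sphingosine and fatty acid; chromosome 8, 41340197 to 41374773) had 111, 108 and 112 CPM after Ep300 siRNA, against 136, 139 and 131 CPM after control siRNA. It fell to 0.817 of the control level (log2 fold change −0.29 ± 0.06, SE; edgeR adjusted p = 0.0111), the only member that fell, and did not pass without Ep300 siRNA replicate 2 (edgeR adjusted p = 0.0534) or control siRNA replicate 2 (0.068, the highest of the settings tried; lowest 0.000768). Ppt1 (palmitoyl-protein thioesterase 1, which removes fatty acids from proteins) had 266, 259 and 273 CPM after Ep300 siRNA, against 238, 222 and 217 CPM after control siRNA. It rose 1.18-fold (0.24 ± 0.06, SE; edgeR adjusted p = 0.0399), but among the fits with a library left out it passed only without control siRNA replicate 1 (edgeR adjusted p up to 0.14). Its exons share 129 bases on the other strand with Cap1, a more abundant gene, at means of 1475 CPM after Ep300 siRNA and 1366 CPM after control siRNA. Lipa (acid lipase, which frees cholesterol from its esters) had 422, 349 and 346 CPM after Ep300 siRNA and 488, 432 and 342 CPM after control siRNA. The libraries overlapped widely (−0.18 ± 0.12, SE; edgeR adjusted p = 0.421). Psap (prosaposin, the precursor of activators of sphingolipid hydrolases) was at 0.10 ± 0.07 (SE, 95% interval −0.05 to 0.25) and Smpd1 (acid sphingomyelinase) at 0.04 ± 0.12 (−0.21 to 0.30).

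Of the 7 membrane and cholesterol transport proteins, 1 rose and 6 did not pass, although all 7 had positive log2 fold changes (median 0.18). Over all genes tested, 2.76% rose and 49.2% were positive. Lamp2, a heavily glycosylated protein of the lysosomal membrane that takes part in autophagy, had 243, 230 and 218 CPM after Ep300 siRNA, against 197, 202 and 183 CPM after control siRNA. It rose 1.19-fold (log2 fold change 0.25 ± 0.07, SE; edgeR adjusted p = 0.043), and it passed with none of the 6 libraries left out (edgeR adjusted p from 0.0506 to 0.145 over those fits). Lamp1, the related membrane protein with the E-box cores shown above, had 940, 836 and 852 CPM after Ep300 siRNA and 853, 757 and 710 CPM after control siRNA, with overlap, and shares 249 bases with Grtp1 on the other strand (0.18 ± 0.08, SE; edgeR adjusted p = 0.22). Npc1 and Npc2, which together move cholesterol out of the lysosome, were at 0.18 ± 0.07 (SE; edgeR adjusted p = 0.152) and 0.13 ± 0.07 (0.304). Mcoln1, a calcium channel of the lysosome, had 47.0, 49.9 and 43.6 CPM after Ep300 siRNA and 47.1, 31.3 and 44.2 CPM after control siRNA, where control siRNA replicate 2 was lowest. Scarb2 (the receptor that carries glucocerebrosidase to the lysosome) was at 0.06 ± 0.07 (SE, 95% interval −0.09 to 0.21) and the tetraspanin Cd63 at 0.07 ± 0.08 (−0.09 to 0.24).

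Grn (progranulin, which is cleaved into granulins in the lysosome) had 935, 910 and 946 CPM after Ep300 siRNA, against 794, 795 and 775 CPM after control siRNA. The libraries of each group lay close together, and Grn rose 1.18-fold (log2 fold change 0.24 ± 0.06, SE; edgeR adjusted p = 0.0368). Its call was lost in 5 of the 6 fits with a library left out, all but that without control siRNA replicate 1 (edgeR adjusted p up to 0.123).

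Genes of the same compartment outside the 35 were described from 6 lists, which hold 105 genes. Over all genes tested, 2.76% rose and 4.02% fell. Among 29 other lysosomal hydrolases, 7 rose and 2 fell, with a median log2 fold change of 0.22. Man2b2, a second lysosomal alpha-mannosidase, rose 1.44-fold (86.5 ± 1.68 CPM after Ep300 siRNA and 60 ± 4.79 CPM after control siRNA, SD, n = 3 each; edgeR adjusted p = 0.00122). Among the other rises were Pld3 (an exonuclease of the lysosome, 1.30-fold), Pla2g15 (lysosomal phospholipase A2, 1.24-fold), Scpep1 (a serine carboxypeptidase, 1.21-fold) and Rnaset2a (a ribonuclease near-identical to Rnaset2b, so that reads may be split, 1.19-fold). Galc, which degrades galactosylceramide, fell to 0.736 of the control level, and Ctsk (cathepsin K, the collagen-degrading protease of osteoclasts) fell to 0.696 of it. Among 24 other lysosomal membrane proteins, 4 rose and 3 fell (median 0.10). Lmbrd1 (1.34-fold) and Cln3 (1.29-fold) were the largest rises, with Glmp and Laptm4a, and the nucleoside transporter Slc29a3 (to 0.67), the channel Tpcn1 (to 0.812) and the ATPase Atp13a2 (to 0.83) fell.

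**Figure D4:**
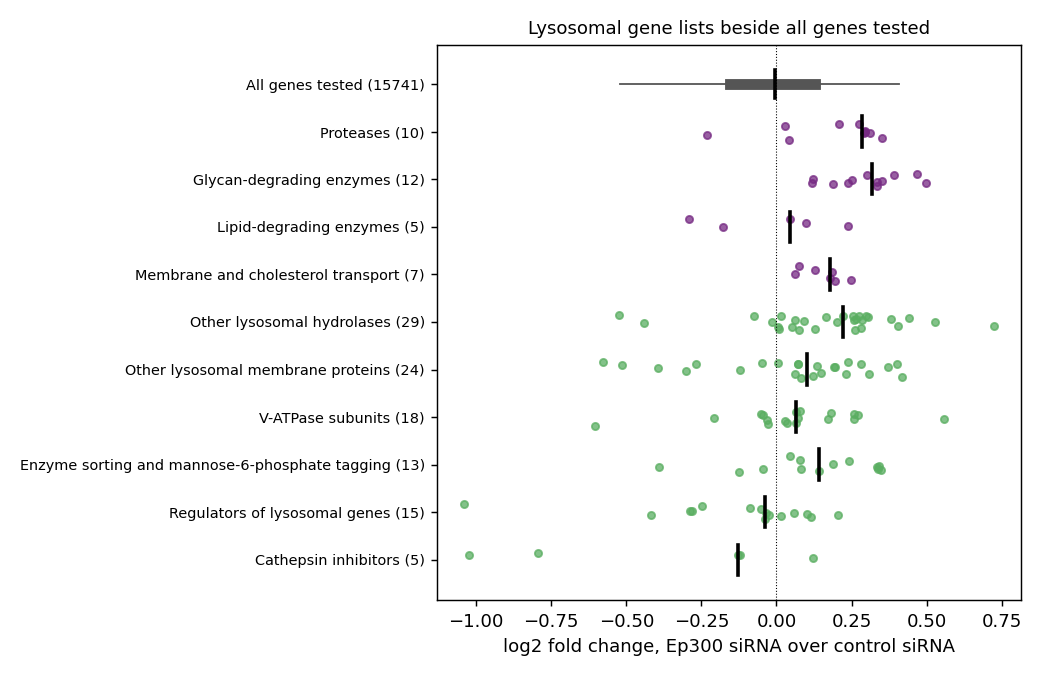
Log2 fold change, Ep300 siRNA over control siRNA, of the 4 groups of members (purple) and of 6 further lists (green), with the number of genes tested in brackets. Short black bars mark medians; for all genes the thick line spans the middle 50% and the thin line 90% of genes, and the medians of proteases and glycan-degrading enzymes, 0.28 and 0.32, lie to the right of the all-gene median of −0.004.

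Subunits of the vacuolar proton pump, which acidifies the lysosome, did not share one direction. Of 18, 2 rose and 1 fell, with a median of 0.07, where 2.76% of all genes rose and 4.02% fell. Atp6v0a2 had 98.0, 99.9 and 94.2 CPM after Ep300 siRNA, against 64.3, 68.5 and 65.6 CPM after control siRNA, a rise of 1.47-fold (edgeR adjusted p = 0.000468). Atp6v0d2, a subunit enriched in osteoclasts, had 181, 160 and 155 CPM after Ep300 siRNA, against 249, 249 and 254 CPM after control siRNA, and fell to 0.659 of the control level (edgeR adjusted p = 0.000661). The accessory subunit Atp6ap1 rose 1.21-fold.

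In the sorting of the enzymes, 3 of 13 genes rose and 1 fell (median 0.14), where 2.76% of all genes rose and 4.02% fell. Gnptab, a subunit of the phosphotransferase that starts the mannose 6-phosphate tag, had 110, 114 and 115 CPM after Ep300 siRNA, against 144, 154 and 146 CPM after control siRNA. It fell to 0.762 of the control level (log2 fold change −0.39 ± 0.06, SE; edgeR adjusted p = 0.0027). Nagpa, which uncovers the tag in the next step, rose 1.27-fold, as did Sumf1, which activates sulfatases, and the adaptor subunit Ap3d1 rose 1.26-fold. The receptors of the tag were at 0.04 ± 0.06 (M6pr, SE) and −0.04 ± 0.08 (Igf2r), and neither passed.

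Regulators of lysosomal genes included 4 of 15 that fell, and the other 11 did not pass (median −0.04). Over all genes tested, 6.78% passed, 4.02% as falls. Mtor, at 0.20 ± 0.06 (SE), was the highest (edgeR adjusted p = 0.0818). Mitf fell to 0.819 of the control level (60.7 ± 1.61 CPM after Ep300 siRNA and 74.1 ± 2.76 CPM after control siRNA, SD, n = 3 each; edgeR adjusted p = 0.0135). Tfeb was at −0.05 ± 0.10 (SE, 95% interval −0.27 to 0.17) and Tfe3 at 0.06 ± 0.06 (−0.07 to 0.19). Bhlhe40 (to 0.748), Mxi1 (to 0.823) and Myc (to 0.486), which all bind E-boxes, alone or with a partner, fell. Myc had few counts, 40, 40 and 68 after Ep300 siRNA and 144, 123 and 90 after control siRNA. Of the 5 cathepsin inhibitors tested, Cst7 (cystatin F, an inhibitor of cathepsins C and L) fell to 0.492 of the control level, at 3.55, 2.57 and 4.08 CPM after Ep300 siRNA against 7.11, 6.72 and 6.90 CPM after control siRNA (edgeR adjusted p = 0.00362). The abundant inhibitors Cst3 and Cstb were at −0.13 ± 0.07 and −0.12 ± 0.08 (SE) and did not pass. Of the 28 genes past the threshold in these 6 lists, 11 passed in each setting tried and with each library left out, among them Man2b2, Pld3, Lmbrd1, Slc29a3, Atp6v0a2, Atp6v0d2, Gnptab, Bhlhe40 and Cst7. Cln3 (edgeR adjusted p = 0.052) and Atp6ap1 (0.0651) did not pass without control siRNA replicate 2, nor Ap3d1 (0.0502) without Ep300 siRNA replicate 2. Ctsk was lost without Ep300 siRNA replicate 2 or control siRNA replicate 3 (edgeR adjusted p up to 0.0746), and Myc without replicate 2 of either group (up to 0.0735). Galc, Scpep1, Pla2g15, Rnaset2a, Laptm4a, Tpcn1, Glmp, Atp13a2, Nagpa, Sumf1, Mitf and Mxi1 each lost their call in at least 3 of the 6 fits with a library left out (edgeR adjusted p up to 0.137). Those lost without Ep300 siRNA replicate 1 were Pla2g15 (edgeR adjusted p = 0.137), Sumf1 (0.117), Laptm4a (0.0785), Rnaset2a (0.0753), Atp13a2 (0.0727), Scpep1 (0.0708), Glmp (0.0508) and Mitf (0.0506).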

How the data were processed

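Poly(A) RNA of 6 RAW264.7 samples was sequenced as stranded libraries from TRIzol-extracted RNA. The deposited values are raw read counts per gene symbol, 1 column per library. The tools named are featureCounts, STAR 2.5.3a, edgeR 3.12.1 and fastp 0.23.4, with the build GRCm38, per the submitters' processing notes. The sources do not state strand, multimapping or annotation settings. Of the low counts (1 to 4), 79.8% to 80.9% were even in each library, as when both mates of a pair are counted. Columns were matched to samples by name. Members and lists were chosen with earlier results of these data known, so no p-value over a list is given; the rule names Ep300, the 35 members and each other listed gene past the threshold, of which some are not reported here.

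The test was that of edgeR 4.0.16 (R 4.3.3; filterByExpr, TMM, quasi-likelihood F-test, no covariate, two-sided, Benjamini-Hochberg over 15741 genes, threshold 0.05). SEs come from the log2 fold change and F. The biological coefficient of variation was 8.62%. CPM uses TMM-scaled library sizes, and PCR reads are not independent molecules. Coordinates, overlaps and mRNA lengths are from GENCODE M21. Alternatives were other scalings and filters, DESeq2 1.42.0, limma-voom (limma 3.58.1), halved counts, a replicate block, left-out rows and each library left out. The edgeR step was run on simulated data with a pass mark only for the largest planted change. That check does not speak for changes as small as those reported here. Figures used matplotlib 3.10.9.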

Additional observations from a re-analysis of the deposited data

How the results depend on the processing

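Counts of members that rose were 14 in the fit reported and 14 to 17 under RLE and upper-quartile scaling, both other filters, halved counts, rows left out, DESeq2 and limma-voom, with 1 that fell in each. Of all genes, 2.76% rose in the fit reported and from 2.42% (no filter) to 4.4% (DESeq2) in those settings. The share that passed in either direction ran from 5.7% to 9.12% over them. On library sizes alone 9 members rose, where 2.01% of all genes rose. With an adjusted p under 0.01, 4 rose and 0 fell, and with one under 0.1, 19 rose and 1 fell. Leaving out 1 library gave 5 to 14 that rose and 0 to 1 that fell. Over all genes, the 435 rises and 633 falls became 730 and 991 with no filter on low counts, 693 rises by DESeq2, 130 and 239 at 0.01, 798 and 1020 at 0.1, and from 202 to 447 rises and from 280 to 607 falls with 1 library left out. The cause of these differences was not tested. Log2 fold changes turned in sign, none past the threshold, for Ctss (−0.0033 on library sizes alone and −0.014 without control siRNA replicate 1), Smpd1 (−0.035 without Ep300 siRNA replicate 3 and −0.004 without control siRNA replicate 1) and Ctsh (0.046 without Ep300 siRNA replicate 2). With 1 library left out, Ctss ran from −0.014 to 0.083, Smpd1 from −0.035 to 0.13 and Ctsh from −0.67 to 0.046. Same-numbered libraries did not deviate together (correlations of 0.087, 0.020 and −0.047), and not every library correlated best with its own number. With the replicate number as a block 17 members rose and 1 fell. In that fit 3.68% of all genes rose and 8.62% passed in either direction. Ctsh had the fewest counts of the members, 46 to 126 per library, and the widest interval.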
